A study of Homo sapiens with 4 samples.

Results

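The genes described here are 35 chaperones, co-chaperones and heat shock factors of the cytosol and the mitochondrion. They were taken by gene symbol from the table of the series, which lists 18650 loci above 0. All 35 symbols were found. They comprise 5 cytosolic HSP70 and HSP110 genes, 2 cytosolic HSP90 genes, 6 co-chaperones of HSP90, 5 HSP40 genes, 2 BAG exchange factors, the small heat shock protein HSPB1, 2 heat shock factors, the 8 subunits of the CCT chaperonin and 4 mitochondrial chaperones. The sequenced RNA came from HT-29, a human colorectal cancer line, and NCM460, the human colorectal line that the study used as normal cells. Each line was examined without treatment (control) and after 24 h with 100 μg/mL of SCS, a chondroitin sulfate prepared from sturgeon. Each of the 4 conditions is a single library (n = 1), so no difference has a replicate check, no test between conditions was made within a line, and a difference between libraries cannot be told apart from an effect of SCS. Both lines are single lines in culture, and both grew in DMEM with fetal bovine serum at different concentrations, so a difference between the lines also includes the medium.

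Chaperones of the HSP70 family bind exposed hydrophobic stretches of unfolded proteins. HSP40 proteins deliver the client and stimulate the ATPase of HSP70, and the BAG and HSP110 proteins release the nucleotide so that the cycle can start again. HSP90 takes over clients that are almost folded, such as kinases and steroid receptors, with a set of co-chaperones that each act at another step. CCT, also called TRiC, is a closed barrel of 8 different subunits that folds actin and tubulin. In the mitochondrion, HSPA9 (mortalin) pulls proteins in through the inner membrane, HSPD1 (HSP60) and its lid HSPE1 (HSP10) fold them, and TRAP1 is the HSP90 of the matrix. HSF1, the main heat shock transcription factor, binds repeats of the unit GAA and its complement TTC, called heat shock elements, in the promoters of many of these genes. Colon cancers often hold high amounts of these proteins.

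Heat shock elements are shown here because HSF1 is known to act through them on both cytosolic and mitochondrial chaperone genes. RefSeq promoters on GRCh38.p14, from 250 bases before to 50 bases after each start, were found for 32 of the 35 genes, in 44 windows. They were searched on both strands for 3 units in a row, spelled GAANNTTCNNGAA or TTCNNGAANNTTC, which overlap wherever 4 or more units follow each other. Such a run was found in 7 of the 32 genes. By window, it was in 7 of their 44 and in 0.49% of all 35116 promoter windows. A run of 2 units, GAANNTTC or TTCNNGAA, was found in 17 of the 32 genes, in 18 of their 44 windows and in 13.5% of all windows. The sites below are printed 5′ to 3′ on the strand of the gene, with the units of the run in capitals. The first 5 belong to HSPD1, CHORDC1, HSP90AA1, HSPA8 and HSP90AB1. These genes had a higher level relative to library size with SCS in NCM460 cells, and were chosen with these values known. HSP90AB1 had the highest level of these genes in that line. By the limits set below, HSP90AB1 was not called higher there, and CHORDC1 was not once a trend with GC content was subtracted. Whether these sites had a part in the changes was not tested. The last belong to HSPA1A and HSPA1B, the classical inducible HSP70 genes, whose runs hold 2 units.
HSPD1: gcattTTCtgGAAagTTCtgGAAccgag
CHORDC1: ccgGAAaaTTCgcGAAggTTCctGAAacg
HSP90AA1: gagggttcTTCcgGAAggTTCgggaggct
HSPA8: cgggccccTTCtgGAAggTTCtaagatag
HSP90AB1: tgagattgTTCtgGAAgcTTCtggattct
HSPA1A: gaaaaccctgGAAtaTTCccgacctggc
HSPA1B: gaaacccctgGAAtaTTCccgacctggc
The site of HSPD1 lies at chr2:197500063-197500090 on the minus strand, its run of 4 units beginning 245 bases before the RefSeq start, and this stretch is inside the span of HSPE1, which is read in the other direction. The site of CHORDC1 lies at chr11:90223084-90223112 on the minus strand, with 5 units from 60 bases before the start. The site of HSP90AA1 lies at chr14:102087112-102087140 on the minus strand and begins 88 bases before the start. The site of HSPA8 printed here lies at chr11:123062171-123062199 on the minus strand, 55 bases before the start, and the same promoter holds another run. The site of HSP90AB1 lies at chr6:44247823-44247851 on the plus strand, 112 bases before the start, and is also 1 of 2 runs in its promoter. The sites of HSPA1A and HSPA1B lie at chr6:31815427-31815454 and chr6:31827623-31827650 on the plus strand. The other genes with 3 units were DNAJA1 and DNAJB6. A match of letters does not show that a factor was bound.

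Levels are given as fragments, recovered as whole numbers from the deposited count columns, and as CPM, the level relative to the size of the library, which was scaled by edgeR's TMM factors. Changes are log2 fold changes of CPM, SCS over control, each with its exact 95% Clopper-Pearson interval in parentheses, which covers counting error only. A locus is called higher or lower here when its fold change was over 1.5 in either direction with an interval that excluded 0. The libraries held 1156568 to 1654764 fragments, but only 507692 to 1383424 came from nuclear genes, since the mitochondrial genome took 35.8% in the HT-29 control and 13.8% with SCS, and 62.3% and 46.3% in NCM460 cells. This share was lower with SCS in both lines, beside every change given here, and its part in them was not tested. A count of 3 fragments, the floor used here, equals 1.25 and 1.47 CPM in the HT-29 libraries and 2.77 and 3.85 CPM in the NCM460 libraries, so small levels are less well resolved in NCM460 cells. Epithelial markers were present in both lines. Of 10 such genes, 8 were above the floor in each HT-29 library and 6 in each NCM460 library, and their summed level ran from 3534.7 to 6525.3 CPM in HT-29 cells and from 2659.4 to 4346.2 CPM in NCM460 cells, the lower value being that of the SCS library in each line. Markers absent at 0 fragments were CDX1 and CDX2 in HT-29 cells and KRT20, VIL1, CDX1 and LGALS4 in NCM460 cells. The summed level of 8 mesenchymal markers was 5.87 and 8.74 CPM in HT-29 cells and 118.1 and 131.3 CPM in NCM460 cells.

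In HT-29 cells the chaperone transcripts were on the whole lower with SCS, and the falls lay mainly in the HSP90 co-chaperones and the CCT subunits. Of the 35 genes, 26 had a log2 fold change below 0 and 9 above. Called lower were 10 genes, STIP1, AHSA1, FKBP4, PTGES3, CCT2, CCT3, CCT5, CCT7, HSPE1 and TRAP1, and called higher was HSPA9 alone. Across the 12168 loci compared in this line, 14.8% were called lower and 16.8% higher. The median log2 fold change of the 35 genes was -0.30, against 0.07 for all loci. Their summed level went from 5670.5 CPM in the control to 4352.0 CPM with SCS, a pooled log2 fold change of -0.38 (-0.42 to -0.34). With a GC trend subtracted in this line, 12 of the 35 genes were called in either direction, 1 higher and 11 lower, against 30.4% of all loci.

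In NCM460 cells the calls went both ways: HSPA8, HSPA4, HSPH1, HSP90AA1, 6 of the 8 CCT subunits, HSPA9, HSPD1 and HSPE1 were called higher with SCS, as were CHORDC1, DNAJA1 and HSF2, while HSPA1B, HSPB1, BAG3, HSF1 and TRAP1 were called lower. HSPA1A had no fragment in either library, and the other 34 genes were compared. Called higher were 16 genes and called lower 5, while 15.4% of the 12657 loci compared were called higher and 13.8% lower. The median of the 34 genes was 0.54, against 0.03 for all loci, and their summed level went from 5908.8 to 7800.5 CPM, a pooled log2 fold change of 0.40 (0.35 to 0.45). Abundant genes weigh most in this sum, such as HSP90AB1 (1551.0 and 2124.0 CPM), which was not called, and HSP90AA1 (152.8 and 754.5 CPM). TRAP1 (508.5 and 254.3 CPM) went the other way. In NCM460 cells the changes moved with the base composition of the transcripts. Spearman's rho between log2 fold change and transcript GC content was -0.74 across 7342 loci averaging 10 CPM or more and -0.79 across the 32 chaperone genes among them, a description over genes of the same 2 libraries. In HT-29 cells the values were -0.17 across 7538 loci and -0.20 across 34 chaperone genes. The GC content of the 35 transcripts ranged from 33.1% in DNAJB4 to 64.7% in HSF1. After a smooth GC trend over all loci was subtracted, 9 of the 34 genes were called higher in NCM460 cells (5.59% of all loci) and 1 was called lower (6.27% of all loci), with a median of 0.08 against -0.02. The 9 were HSPA8, HSPH1, HSP90AA1, DNAJB6, HSF2, CCT2, CCT8, HSPD1 and HSPE1, and the lower gene was BAG3. Values with the trend subtracted are given beside the NCM460 values as GC-subtracted. What the GC trend reflects was not tested.

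**Figure D1:**
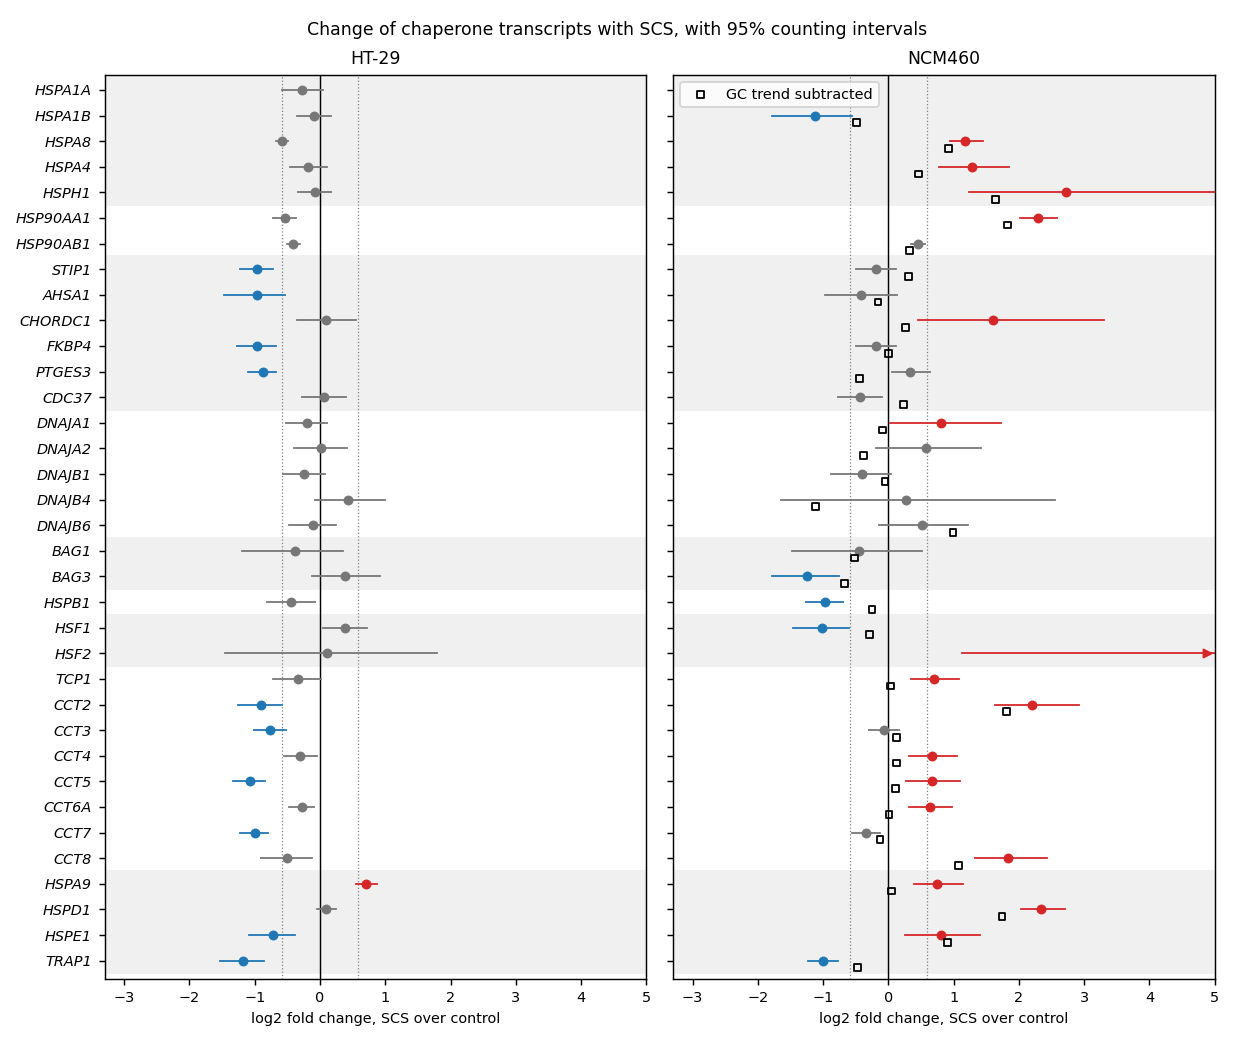
Log2 fold change with SCS (x axis) of the 35 chaperone genes (y axis, shaded by class in alternation) in HT-29 and NCM460 cells, 1 library per condition. Filled points and bars are the change and its 95% counting interval, red where called higher, blue where called lower and gray where not called; dotted lines mark 1.5-fold, and open squares give the GC-subtracted value. HSF2 in NCM460 cells, with 0 control fragments, is drawn as its interval only, with an arrow, and HSPA1A had no fragments there. The 8 CCT subunits all lie below 0 in HT-29 cells, and HSP90AA1, HSPD1 and CCT2 lie above 2 in NCM460 cells.

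Among the cytosolic HSP70 genes, HSPA8, which encodes the constitutive HSC70, was the most abundant. Without and with SCS it held 2067 and 1624 fragments in HT-29 and 168 and 532 in NCM460 cells. The signs were opposite in the lines, with -0.58 (-0.67 to -0.49) in HT-29 cells, just short of the 1.5-fold limit, and a called rise of 1.18 (0.94 to 1.45) in NCM460 cells, GC-subtracted 0.92 (0.67 to 1.18). HSPA4, an HSP110 protein that acts as exchange factor for HSP70, had 209 and 217 fragments in HT-29 and 39 and 133 in NCM460 cells. It rose in NCM460 cells by 1.28 (0.77 to 1.85), and the GC-subtracted value of 0.46 (-0.05 to 1.03) was not called. HSPH1, the other HSP110 gene, held 249 and 276 fragments in HT-29 cells but only 2 and 26 in NCM460 cells. The log2 fold change there was 2.72 (1.23 to 6.35), GC-subtracted 1.64 (0.14 to 5.26), resting on 2 control fragments.

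HSPA1A and HSPA1B encode the stress-inducible HSP70, and in NCM460 cells HSPA1A was not detected and HSPA1B was called lower. HSPA1A held 174 and 169 fragments in HT-29 cells and 0 in both NCM460 libraries, where 0 allows a level of up to 3.85 CPM in the control and 2.77 CPM with SCS. HSPA1B held 230 and 253 fragments in HT-29 cells, 61 in the NCM460 control and 38 with SCS. Its fall in NCM460 cells was -1.13 (-1.78 to -0.55), GC-subtracted -0.49 (-1.15 to 0.09), and it was called neither after that subtraction nor under total counts. The coding sequences of both genes are 1923 bases long and 99.8% identical, with 4 differing bases, so how the counting split their reads is uncertain. Counted together, the pair had 404 and 422 fragments in HT-29 cells, a change of -0.17 (-0.37 to 0.03). In the table both are placed on an alternate haplotype of the MHC region of chromosome 6 and not on the primary sequence.

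Of the cytosolic HSP90 genes, the inducible one differed most between the lines. HSP90AA1, the inducible HSP90α gene (chromosome 14, 102080738 to 102139699 on GRCh38), held 606 fragments in the HT-29 control against 488 with SCS, and 119 in the NCM460 control against 816 with SCS. It changed by -0.54 (-0.72 to -0.37) in HT-29 cells, which was not called, and rose by 2.29 (2.02 to 2.59) in NCM460 cells, GC-subtracted 1.82 (1.55 to 2.12). The difference between the lines, HT-29 minus NCM460, was -2.84 (-3.16 to -2.51) in log2 units by counting error. HSP90AB1, the constitutive HSP90β gene, held 1755, 1554, 1208 and 2297 fragments in the same order of libraries. Neither of its changes reached 1.5-fold, at -0.41 (-0.51 to -0.31) and 0.45 (0.35 to 0.56). The β form had more fragments than the α form in each library. The α form had the larger change in NCM460 cells, while in HT-29 cells the intervals of both overlapped. In FPKM, which corrects for transcript length, HSP90AB1 stood at 227.7 and 147.3 in HT-29 cells and at 710.0 and 727.0 in NCM460 cells, and HSP90AA1 at 61.6 and 31.8 and at 62.4 and 202.1.

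Of the 6 co-chaperones of HSP90, 4 were called lower in HT-29 cells (14.8% of all loci), and 5 were not called in NCM460 cells. STIP1, the adaptor HOP that holds HSP70 and HSP90 together, went from 342 to 204 fragments in HT-29 cells, a fall of -0.97 (-1.23 to -0.72). AHSA1, the activator of the HSP90 ATPase, went from 107 to 63 fragments, -0.96 (-1.47 to -0.53). FKBP4, the steroid receptor immunophilin FKBP52, went from 258 to 154 fragments, -0.96 (-1.27 to -0.68). These 3 falls were of nearly the same size, and PTGES3 (p23), which closes the HSP90 cycle, was close to them with 493 and 313 fragments, -0.88 (-1.10 to -0.68). CDC37, which brings kinases to HSP90, did not share the fall, with 140 and 172 fragments and 0.06 (-0.27 to 0.40), nor did CHORDC1, an HSP90 partner with CHORD domains, with 75 and 94 fragments and 0.09 (-0.36 to 0.55). Pooled over the 6 genes, the level in HT-29 cells went from 691.6 to 416.1 CPM, -0.73 (-0.85 to -0.61), and the class median of -0.92 was the lowest of the 9 classes. In NCM460 cells the pooled change was -0.09 (-0.23 to 0.06), and the class median of -0.19 turned to 0.50 under total counts, where the median of all loci was 0.57, and to 0.12 after GC subtraction. STIP1 (169 and 206 fragments), AHSA1 (57 and 59), FKBP4 (166 and 202), PTGES3 (154 and 270) and CDC37 (152 and 156) had changes from -0.43 to 0.33 there, none of them called. CHORDC1 was called higher, from 6 to 28 fragments and by 1.60 (0.45 to 3.31), but its transcript is among the poorest in GC, at 35%, and the GC-subtracted value was 0.26 (-0.89 to 1.97).

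In HT-29 cells no HSP40 gene was called, and the 5 log2 fold changes ran from -0.25 in DNAJB1 to 0.43 in DNAJB4, with a median of -0.11 that became 0.16 under total counts, where the median of all loci was 0.32. In NCM460 cells the class median was 0.51, with 1 gene called higher, and it became 1.17 with 3 called under total counts and -0.09 with 1 called after GC subtraction. DNAJB1, the main inducible HSP40, held 163, 161, 80 and 83 fragments, with -0.25 (-0.57 to 0.07) in HT-29 cells and -0.41 (-0.88 to 0.04) in NCM460 cells. DNAJA1, the type I partner of HSC70, held 165, 168, 18 and 45 fragments. It was the HSP40 gene called higher in NCM460 cells, by 0.81 (0.03 to 1.72), and its sign turned to -0.09 (-0.88 to 0.82) after GC subtraction. DNAJA2, a type I HSP40 like DNAJA1 (93, 110, 21 and 44 fragments), and DNAJB4, a relative of DNAJB1 (51, 82, 4 and 7 fragments, listed with the values of GIPC2) were called in neither line. DNAJB6, which suppresses aggregation, held 128, 139, 29 and 58 fragments and changed by 0.51 (-0.14 to 1.22) in NCM460 cells. With a GC content of 55.0% it lay above the trend of loci of like composition, and its GC-subtracted value of 0.99 (0.34 to 1.70) was called. That GC content is of the longest DNAJB6 transcript, of 7992 bases, which may not be the form counted. The FPKM of DNAJB6 in NCM460 cells went the other way, from 37 to 29.3.

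BAG3, HSPB1 and HSF1, from the classes of exchange factors, small heat shock proteins and heat shock factors, were called lower in NCM460 cells. BAG3, which links HSP70 to the removal of aggregates, went from 88 to 51 fragments, -1.24 (-1.79 to -0.75), and remained called after GC subtraction at -0.67 (-1.22 to -0.18). In HT-29 cells BAG3 had 53 and 82 fragments, 0.38 (-0.12 to 0.92), and the difference between the lines was 1.62 (0.92 to 2.32). BAG1, an exchange factor for HSC70, held 33, 29, 19 and 19 fragments and was called in neither line. HSPB1 (HSP27), a holdase that keeps unfolded proteins soluble, held 130 and 112 fragments in HT-29 and 261 and 184 in NCM460 cells. Its fall in NCM460 cells, -0.97 (-1.26 to -0.70), shrank to -0.25 (-0.53 to 0.02) after GC subtraction, and in HT-29 cells it was -0.44 (-0.82 to -0.07), which was not called.

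HSF1 itself was not called in HT-29 cells, with 125 and 192 fragments and 0.38 (0.05 to 0.72). In NCM460 cells it fell from 113 to 77 fragments, -1.01 (-1.46 to -0.60), GC-subtracted -0.29 (-0.74 to 0.13). HSF2, a related factor that can pair with HSF1, was scarce, with 7 and 9 fragments in HT-29 and 0 and 13 in NCM460 cells. Set against the floor of 3 control fragments, HSF2 was 3.12-fold higher with SCS in NCM460 cells, which is not a minimum. The counting interval of 0 against 13 fragments began at 1.13 on the log2 scale. After GC subtraction the ratio to the floor was 1.52-fold and the interval began at 0.10. The 32 genes with a promoter sequence were also counted by whether 3 units stood in it. Of the 7 genes with 3 units, none was called in HT-29 cells, and 5 were called higher and none lower in NCM460 cells. After GC subtraction 4 were called higher, among them DNAJB6, which was not called before it. The medians were -0.20, 1.18 and 0.92 in this order. Of the 25 genes without 3 units, 1 was higher and 9 were lower in HT-29 cells, 10 were higher and 4 lower in NCM460 cells, and 5 were higher and 1 lower after GC subtraction, with medians of -0.34, 0.30 and 0.04. The median GC content of their transcripts was 45.2% and 48.6%. Of all loci compared in NCM460 cells, 15.4% were called higher and 13.8% lower, or 5.59% and 6.27% after GC subtraction. The median of all loci there was 0.03, or -0.02 after that subtraction. For HT-29 the shares were 16.8% higher and 14.8% lower, with a median of 0.07. The counts by promoter are of small groups, and a link between the units and the changes was not tested.

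**Figure D2:**
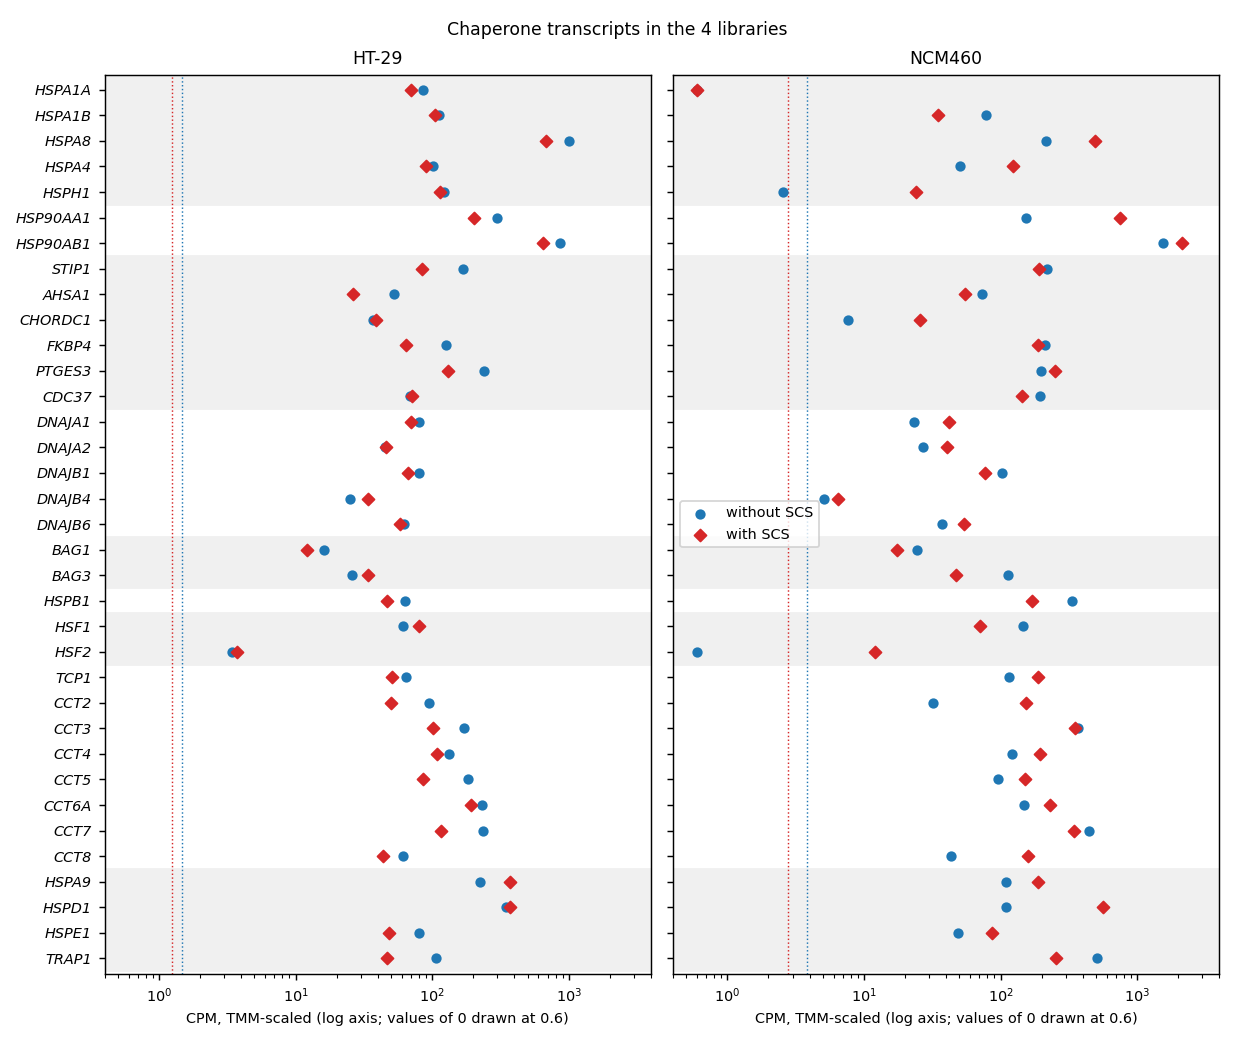
TMM-scaled CPM on a log axis of the 35 chaperone genes (y axis, shaded by class in alternation) in HT-29 and NCM460 cells, 1 library per point; blue circles are control and red diamonds SCS libraries. Dotted lines mark the level of 3 fragments in each library, and values of 0 are drawn at 0.6. Points of HT-29 cells lie close together for most genes, and the widest gaps in NCM460 cells include those of HSP90AA1 and HSPD1.

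Of the 8 CCT subunits, 4 were called lower in HT-29 cells (14.8% of all loci) and none higher (16.8%). All 8 had a log2 fold change below 0, under each alternative scaling as well, and the class median was -0.63. Their pooled level went from 1171.5 to 745.3 CPM, a pooled log2 fold change of -0.65 (-0.74 to -0.56). CCT5 went from 372 to 206 fragments, -1.07 (-1.34 to -0.84), CCT7 from 478 to 280, -1.0 (-1.22 to -0.79), CCT2 from 193 to 120, -0.90 (-1.26 to -0.58), and CCT3 from 350 to 242, -0.76 (-1.01 to -0.52). The other 4 were not called, CCT8 (126 and 104 fragments) with -0.50 (-0.90 to -0.12), TCP1, the first subunit (131 and 121), with -0.34 (-0.72 to 0.02), CCT4 (272 and 259) with -0.30 (-0.55 to -0.05) and CCT6A (475 and 459, listed with the values of SUMF2) with -0.28 (-0.47 to -0.09). The intervals of CCT5 and CCT6A did not overlap, but they cover counting error only. With 1 library per condition, and with CCT6A counted together with SUMF2, this does not show that the subunits responded differently.

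In NCM460 cells 6 CCT subunits were called higher (15.4% of all loci) and none lower (13.8%). Called higher were 3 under DESeq2 size factors, 2 under the authors' scaling and 2 after GC subtraction. CCT2 went from 25 to 165 fragments, 2.20 (1.64 to 2.92), and CCT8 from 34 to 171, 1.83 (1.32 to 2.43), and both were called after GC subtraction too, at 1.81 (1.24 to 2.53) and 1.07 (0.57 to 1.68). TCP1 (90 and 204 fragments), CCT4 (94 and 209), CCT5 (74 and 164) and CCT6A (115 and 248) were called higher within a narrow range, by 0.63 to 0.70, and their GC-subtracted values of 0.01 to 0.13 were not called. CCT3 (287 and 380 fragments) and CCT7 (344 and 376) had -0.07 (-0.29 to 0.16) and -0.34 (-0.56 to -0.13). Per length, the range between the subunits differed by condition. In the NCM460 control the FPKM of the subunits ran from 33.4 in CCT2 to 280.6 in CCT7, an 8.41-fold range, and with SCS from 85.6 in CCT2 to 180.2 in CCT7, a 2.1-fold range. In HT-29 cells the range was 3.39-fold in the control and 4.33-fold with SCS, with TCP1 the lowest in both, at 32.1 and 15.7. CCT holds its subunits in equal number, and their transcript levels were unequal in all 4 libraries.

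**Figure D3:**
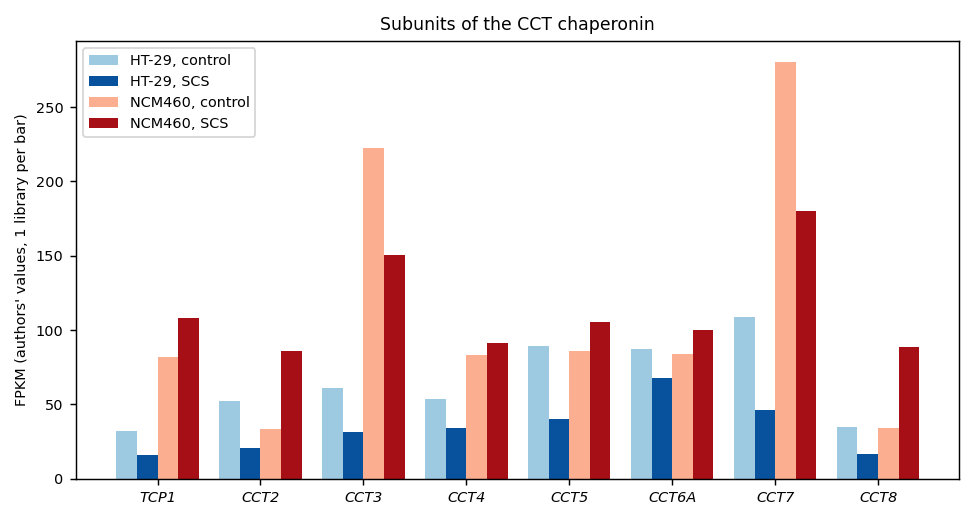
FPKM, as the authors deposited it, of the 8 CCT subunits (x axis) in the 4 libraries, 1 library per bar and so without error bars. In HT-29 cells the SCS bar of each gene is the lower one, while in NCM460 cells those of CCT2 and CCT8 are higher and CCT3 and CCT7, the highest 2 subunits in both NCM460 libraries, are lower with SCS.

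The 4 mitochondrial chaperones each behaved differently. HSPA9 was the only chaperone gene called higher in HT-29 cells, from 459 to 885 fragments and by 0.71 (0.55 to 0.88). It was also called higher in NCM460 cells, from 86 to 202 fragments and by 0.75 (0.39 to 1.1), where the GC-subtracted value was 0.05 (-0.31 to 0.44). TRAP1 was the gene called lower in both lines, from 219 to 112 fragments in HT-29 cells, -1.18 (-1.54 to -0.86), and from 396 to 275 in NCM460 cells, -1.0 (-1.23 to -0.77). After GC subtraction the NCM460 value was -0.47 (-0.70 to -0.25), under the 1.5-fold limit. Before GC subtraction, HSPA9 and TRAP1 were thus the genes called in the same direction in both lines. HSPA9, the HSP70 of the matrix, was higher and TRAP1, the HSP90 of the matrix, was lower. After GC subtraction neither was called in NCM460 cells. How many of all loci were called alike in both lines was not counted.

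HSPD1 and HSPE1, the chaperonin and its lid, lie next to each other on chromosome 2 in opposite orientation, HSPD1 from 197486581 to 197516737 and HSPE1 from 197499994 to 197503457 on GRCh38. HSPD1 held 710 and 889 fragments in HT-29 cells, 0.09 (-0.05 to 0.24), and 85 and 605 in NCM460 cells, a rise of 2.34 (2.03 to 2.70), GC-subtracted 1.74 (1.42 to 2.10). HSPE1 held 164 and 116 fragments in HT-29 cells, a fall of -0.72 (-1.09 to -0.38), and 38 and 93 in NCM460 cells, a rise of 0.80 (0.26 to 1.40), GC-subtracted 0.91 (0.36 to 1.51). In FPKM, HSPE1 stood at 117.8 and 125.5 in NCM460 cells, a much smaller rise. The 2 genes thus did not keep a fixed ratio of transcripts within a line. HSPE1 is listed with the same values as MOB4 and the readthrough HSPE1-MOB4, and the span of HSPD1 covers that of HSPE1. Whether the counting used strand is not given in the sources used here, so their reads may have been shared.

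**Figure D4:**
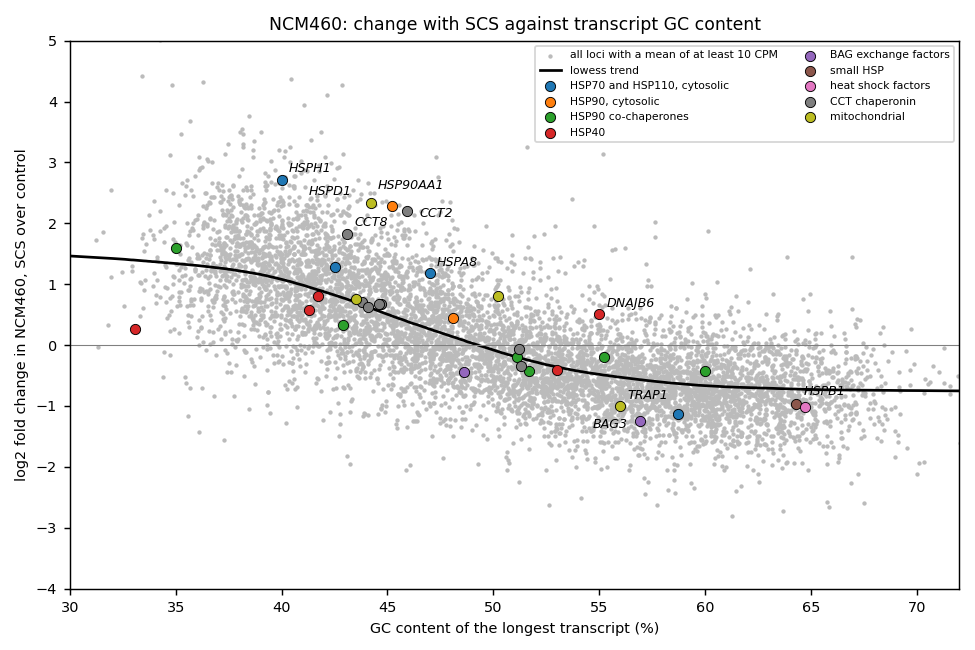
Log2 fold change with SCS in NCM460 cells (y axis) against the GC content of the longest transcript in percent (x axis); gray points are 7342 loci averaging 10 CPM or more, coloured points the chaperone genes by class, and the line is the lowess trend over all loci that was subtracted. HSF2 and HSPA1A, with 0 control fragments, are left out. HSP90AA1, HSPD1, CCT2 and DNAJB6 lie well above the line, while most CCT subunits and HSPB1 lie near it.

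Without SCS, the lines differed in which chaperones they carried. Of the 35 genes, 16 were called higher and 10 lower in HT-29 cells than in NCM460 cells, against 25.3% and 23.1% of the 12691 loci compared. In either direction that is 26 of the 35 genes, and 48.4% of the loci. The median was 0.51, against 0.10 for all loci. Per length, HSPA8 was the highest chaperone in HT-29 cells, with 338.5 FPKM in the control and 207.6 with SCS, and HSP90AB1 in NCM460 cells. Of the 5 HSP70 class genes, 4 were called higher in HT-29 cells, and HSPA1B was not, at 0.51 (0.11 to 0.95), but was after GC subtraction, at 1.23 (0.83 to 1.67). HSPA1A held 174 fragments against 0, which is 22.1-fold higher when set against the floor of 3 fragments, and 38.1-fold after GC subtraction. How reads were split between HSPA1A and HSPA1B is uncertain. Counted together, the pair stood at 197.5 CPM in the HT-29 control and 78.3 CPM in the NCM460 control. HSPA8 differed by 2.22 (2.0 to 2.46) in log2 units, GC-subtracted 1.94 (1.72 to 2.18). HSPH1, with 249 fragments against 2, differed by 5.00 (3.70 to 8.62), GC-subtracted 3.76 (2.46 to 7.38), and HSPA4 by 1.01 (0.53 to 1.56), which GC subtraction brought to 0.09 (-0.39 to 0.64). NCM460 cells had more HSPB1, by a log2 difference of -2.38 (-2.71 to -2.09), HT-29 over NCM460, more TRAP1, -2.23 (-2.49 to -2.01), more BAG3, -2.07 (-2.64 to -1.62), and more CDC37, -1.49 (-1.85 to -1.17). After GC subtraction these 4 were -1.32, -1.71, -1.48 and -0.69, and all were still called lower, while CDC37 was not called under total counts, at -0.41. These differences too followed GC content, with a Spearman's rho of -0.61 across 7542 loci and -0.61 across 34 chaperone genes. After GC subtraction 9 of the 35 genes were called higher and 9 lower, and the share of all loci was not counted there. The controls of this comparison are those of the comparisons with SCS, so a low control value of NCM460 cells, as in HSPH1, enters both.

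Further chaperone genes were read from lists that hold none of the 35. Among 12 further HSP40 genes, 4 were called higher in HT-29 cells, where 16.8% of all loci were, and none lower, and after GC subtraction 2 were higher, against 14.5% of loci. The highest was DNAJB2 (HSJ1), an HSP40 best known from neurons, from 38 to 132 fragments and 1.5 (1.03 to 2.13). DNAJC9, a histone-binding HSP40 listed with the values of MRPS16, had 151 fragments in both libraries and the lowest value at 10 CPM or more, -0.23. In NCM460 cells 3 of these genes were called higher (15.4% of all loci) and 3 lower (13.8%). They ran from DNAJA4 (18 and 10 fragments, -1.21) to DNAJC21, a ribosome assembly factor (3 and 25 fragments, 2.25, interval 0.87 to 4.96). After GC subtraction none was called higher (5.59% of all loci) and 1 lower (6.27%). Of 6 further HSP70 and HSP110 genes, HSPA13 (STCH), a microsomal HSP70, rose in HT-29 cells from 38 to 191 fragments, 2.03 (1.59 to 2.64), while HSPA4L, another HSP110 gene, fell from 60 to 36, -0.91 (-1.61 to -0.35). HSPA13 went from 3 to 30 fragments in NCM460 cells, 2.50 (1.16 to 5.20), GC-subtracted 1.16 (-0.18 to 3.86), and HSPA12A, a distant HSP70 relative, from 7 to 23, which was not called. HSPA6, a strictly heat-induced HSP70, was at 7 and 2 fragments in HT-29 cells and at 0 in both NCM460 libraries. SERPINH1 (HSP47), the collagen chaperone, held 111 and 110 fragments in HT-29 cells, -0.24 (-0.64 to 0.15), and fell in NCM460 cells from 91 to 73, -0.78 (-1.26 to -0.33), GC-subtracted -0.23 (-0.70 to 0.22).

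Of 20 further co-chaperones, 18 were compared in HT-29 cells, where none was called higher (16.8% of all loci) and 5 were called lower (14.8%). Among those averaging 10 CPM or more SUGT1, an HSP90 partner, had the highest value, 0.43 (0.01 to 0.89), with 72 and 115 fragments. The lowest of these was FKBP5 (FKBP51), the immunophilin relative of FKBP4, from 75 to 30 fragments, -1.46 (-2.22 to -0.93). In NCM460 cells 6 were called higher (15.4% of all loci) and 4 lower (13.8%). They ran from SGTA, which guides tail-anchored proteins (110 and 55 fragments, -1.45), to BAG5, an exchange factor (5 and 27 fragments, 1.77). After GC subtraction none was called higher (5.59% of all loci) and 1 lower (6.27%), SGTA at -0.75. Prefoldin, which hands actin and tubulin to CCT, and other CCT partners numbered 8. In HT-29 cells PFDN2 was called higher, from 30 to 107 fragments, 1.52 (1.01 to 2.24), and PFDN1 lower, from 66 to 43, -0.81 (-1.44 to -0.27). That is 1 call in each direction among 8 genes, close to the shares of all loci, and the median of the list was -0.26. In NCM460 cells 3 were called higher (15.4% of all loci), among them the prefoldin subunit VBP1 with 1 and 29 fragments, 3.46 (1.79 to 9.74). None was called lower (13.8%), the lowest being PFDN6 with 24 and 19 fragments, -0.77 (-1.76 to 0.12). For 3 of the 8 genes, 1 of the 2 NCM460 libraries was at or under the floor of 3 fragments. After GC subtraction 2 were called higher (5.59% of all loci) and 1 lower (6.27%).

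Of 12 mitochondrial co-chaperones and proteases, 3 were called higher (16.8% of all loci) and 2 lower (14.8%) in HT-29 cells, and 1 higher (14.5%) and 2 lower (15.9%) after GC subtraction. At 10 CPM or more they ran from GRPEL1, the exchange factor of HSPA9 (58 and 44 fragments, -0.60), to LONP1, the matrix protease (125 and 251 fragments, 0.76). In NCM460 cells 3 were called higher (15.4% of all loci), led by YME1L1, a protease of the inner membrane (6 and 65 fragments, 2.77). Called lower were 3 (13.8% of all loci), down to HTRA2, a protease of the intermembrane space (23 and 10 fragments, -1.55). After GC subtraction 2 were called higher (5.59% of all loci) and 3 lower (6.27%). The same shares of all loci stand beside the counts of the next list. A list of 25 HSF1 target genes, 17 of them among the 35 genes, held 24 loci compared in HT-29 cells, 2 called higher and 5 lower with a median of -0.26. It held 22 in NCM460 cells, 7 called higher and 6 lower with a median of -0.19, and after GC subtraction 5 higher and 2 lower with a median of -0.07. DEDD2, a death effector domain protein, was its highest gene in HT-29 cells, from 58 to 155 fragments, 1.15 (0.74 to 1.65).

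A change with SCS that both lines share could be fitted across all 4 libraries with the line as a block, which leaves 1 residual degree of freedom. By edgeR's quasi-likelihood test with Benjamini-Hochberg adjustment, 0 of the 35 genes and 9 of 12942 loci passed an adjusted p of 0.05. At an unadjusted p under 0.05 there were 2 of the 35 genes and 695 of the 12942 loci, which are like shares. The 2 genes were HSPD1, with a fitted log2 fold change of 1.20 (adjusted p = 0.866, edgeR), and TRAP1 with -1.10 (adjusted p = 0.918, edgeR). The fitted value of HSPD1 lies between 0.09 in HT-29 cells and 2.34 in NCM460 cells, so it was not a change of like size in both lines.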

How the data were processed

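RNA-seq was analysed from 4 libraries of HT-29 and NCM460 cells, mapped to conditions by the submitters' labels and the column names. According to the paper, RNA was extracted with TRIzol, sequenced as paired ends, cleaned of adapters and low-quality reads and compared with Cuffdiff. The submitters' processing notes name bcl2fastq 2.17.1.14, cutadapt 1.9.1, Bowtie2, HTSeq 0.6.1 and hg19, but the coordinates in the deposited table are those of GRCh38, and the strand setting is not given in the sources used here. The count columns the authors deposited are a signal, fragment counts divided by a factor of each library, and the FPKM values the authors deposited are per kilobase of transcript and scaled by library. The design had assumed whole counts. Division by the worth of 1 fragment (0.686, 0.577, 2.04 and 1.33) gave whole numbers within 0.05 for 99.8% to 99.9% of values above 0, and 100% under 200 fragments. Of 64962 entries, 26 without a name, with 0.0403% to 0.0942% of the fragments, were left out, and entries of overlapping genes with identical values were merged into 18650 loci, 1812 of them with more than 1 gene.

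Fragments were scaled by TMM over all 4 libraries (edgeR 4.0.16, R 4.3.3, factors 1.24, 1.50, 0.578 and 0.935), with a prior count of 2. Only loci averaging 1 CPM or more in the libraries compared were used, and GC content came from GENCODE release 29 transcripts, with a lowess span of 0.3. With 1 library per condition the count tests of edgeR and DESeq2 called no genes within a line because they could not be fitted. The shared change across lines was an alternative chosen after seeing the data. Alternatives were DESeq2 1.42.0 size factors, total or nuclear totals only, the authors' scaling, a prior count of 0.5, equal nuclear depth, trends on GC, length or expression subtracted, other filters, and FPKM with a pseudocount of 1. The genes and lists were chosen with earlier results of these data known. All 35 genes are named, with the highest and lowest gene of each further list among loci averaging 10 CPM or more in a line, and HSPA6 and SERPINH1. The method was tested on simulated data.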

Additional observations from a re-analysis of the deposited data

Results flagged for a closer look

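For 3 of the 35 chaperone genes the change with SCS was called in opposite directions in the lines, each line having 1 library per condition. Of all loci, 14.8% were called lower in HT-29 cells and 15.4% higher in NCM460 cells, and how many had opposite calls was not counted. CCT2, a subunit of the CCT chaperonin, had a log2 fold change of -0.90 in HT-29 cells and 2.20 in NCM460 cells, a difference of -3.11 (-3.79 to -2.42 by counting error), and -2.73 (-3.41 to -2.04) with the GC trend subtracted in both lines. CCT5, of the same complex, differed by -1.74 (-2.21 to -1.28), and by -1.24 (-1.70 to -0.77) after GC subtraction, when its NCM460 value was no longer called. HSPE1, the lid of the mitochondrial chaperonin, differed by -1.52 (-2.16 to -0.88), and by -1.61 (-2.25 to -0.96) after GC subtraction. In FPKM its NCM460 change was only 0.09 in log2 units. The difference between the lines was not tested, since a term for it leaves no residual degrees of freedom among the 4 libraries.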

How the results depend on the processing

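Of the calls, those made under all 11 other ways of handling the fragments were 8 of the 10 lower genes in HT-29 cells, 8 of the 16 higher genes in NCM460 cells, and 6 of 16 higher and 3 of 10 lower genes between the lines. The other filters among the 11 changed only which loci were compared, so the calls of loci that were kept could not change under them. FPKM was not among the 11, and in it the NCM460 change of HSPE1 was only 0.09. The HSPA9 call in HT-29 cells was lost under nuclear totals alone, CCT3 and HSPE1 under total counts alone, and none of the 5 lower calls in NCM460 cells held throughout, BAG3 being lost under total counts alone. Scaling by total counts moved the median of all loci from 0.07 to 0.32 in HT-29 cells and from 0.03 to 0.57 in NCM460 cells. Under it, 4 genes were called higher in HT-29 cells and the median was -0.03, 0 were called lower in NCM460 cells and the median was 1.19, and 3 were called lower between the lines with a median of 1.59. Under nuclear totals 0 were called higher in HT-29 cells. With the GC trend subtracted, 9 were called higher and 1 lower in NCM460 cells and 9 higher between the lines. From FPKM, without intervals, 17 were called lower in HT-29 cells, 9 higher and 11 lower in NCM460 cells, and 9 higher between the lines. Among called genes, signs turned for DNAJA1 in NCM460 cells (-0.09, GC subtracted) and, between the lines, for HSP90AB1 (0.24), FKBP4 (0.34), TCP1 (0.24) and CCT7 (0.18) under total counts, DNAJA2 (-0.35) and CCT6A (-0.05) after GC subtraction, and HSP90AA1 (-0.02), DNAJA2 (-0.23), DNAJB6 (-0.28) and HSPE1 (-0.23) in FPKM. Among genes not called in NCM460 cells, GC subtraction also turned STIP1 (0.31), PTGES3 (-0.44), CDC37 (0.23), DNAJA2 (-0.38), DNAJB4 (-1.12) and CCT3 (0.13). The cause was not tested.

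No paired analysis was possible because the labels give no replicate numbers and each condition has 1 library, other than the fit of both lines with the line as a block, and no library was left out for the same reason. The intervals cover counting error only, and at 0 to 3 fragments, as in HSF2 and HSPH1 in NCM460 cells, a fold change is poorly set.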
